A study of Caenorhabditis elegans with 8 samples.

Results

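The 9 genes described here are mtch-1, the target of the RNA interference, and 8 other genes whose products sit on the outer mitochondrial membrane or shape and move mitochondria: vdac-1, mtx-1, mtx-2, miro-1, fzo-1, drp-1, fis-2 and eat-3. They were chosen by gene identifier for their function, with earlier results of these data known. They are 9 of the 20871 genes in the deposited table. All 9 passed the expression filter and are among the 13252 genes tested. The identifier F13B9.8 was listed under the name fis-1 when the genes were chosen, but the Ensembl and RefSeq annotations both name it fis-2, and that name is used here. fis-1 itself was not analysed here.

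RNA sequencing was done on whole adult Caenorhabditis elegans, with 4 samples fed HT115 Escherichia coli that made double-stranded RNA against mtch-1, written mtch-1(RNAi), and 4 fed the same bacteria with the empty L4440 vector, written EV. The worm strain and genotype are not stated in the labels. Bacteria of both groups received 5 mM IPTG during 3 h of induction at 37 °C, and worms grew at 20 °C on ampicillin plates that held 1 mM IPTG, which induces the bacterial double-stranded RNA. They were collected on day 3 of adulthood. Each sample is a pool of about 200 animals, and the knockdown by feeding reaches many tissues at once. Total gene counts lay between 20626184 and 22748868 in mtch-1(RNAi) and between 18710833 and 23608608 in EV. Levels of 1 gene across samples are given as CPM, counts divided by the TMM-scaled library size, and levels of different genes are compared only as the authors' FPKM, which divides by gene length. A change is called where the edgeR quasi-likelihood test gave a Benjamini-Hochberg adjusted p under 0.05 over all genes tested. Where counts at an unadjusted p under 0.05 are given, the share of all genes at that limit was not computed.

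The outer mitochondrial membrane is crossed by metabolites through VDAC, a beta-barrel channel. It also carries helical proteins that steer the shape and movement of the organelle. MTCH-1 is a carrier-like protein of that membrane, and its human relative MTCH2 inserts alpha-helical, tail-anchored proteins into it. Mitochondria fuse through mitofusin (FZO-1 in the worm) at the outer membrane and OPA1 (EAT-3) at the inner membrane. They divide when the dynamin DRP-1 constricts them, and FIS-2 belongs to the tail-anchored Fis1 family linked to fission. The GTPase MIRO-1, also tail-anchored, and the metaxins MTX-1 and MTX-2 connect mitochondria to microtubule motors in worm neurons. Mammalian metaxins belong to the machinery that assembles beta-barrel proteins.

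Of the 9 genes, 3 fell after mtch-1(RNAi) (mtch-1, vdac-1 and fis-2), 1 rose (mtx-2) and 5 did not pass the test. mtch-1 is the target, so its fall was the aim of the design, and among the other 8 only vdac-1 and fis-2 fell. In the same fit 13% of all genes tested fell and 10% rose. mtch-1 was left with 16.9% of its EV level, fis-2 with 80.8% and vdac-1 with 80.9%, and mtx-2 reached 117%. The fitted log2 fold change was negative for 7 of the 9, with a median of -0.13 for the 9 and of -0.10 for the 8 without mtch-1, beside a median of 0.01 over all genes tested. In the authors' deposited table, 4 of the 9, with mtch-1 among them, had an adjusted p under 0.05. Of all 20866 genes with a p-value there, 15.7% did. That base was not limited to the 13252 genes that passed the expression filter, as all 9 did. In DESeq2 run here on the 13252 genes, 1441 rose and 1827 fell. That table's log2 fold changes were -2.57 for mtch-1, -0.31 for vdac-1, -0.31 for fis-2 and 0.22 for mtx-2.

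**Figure D1:**
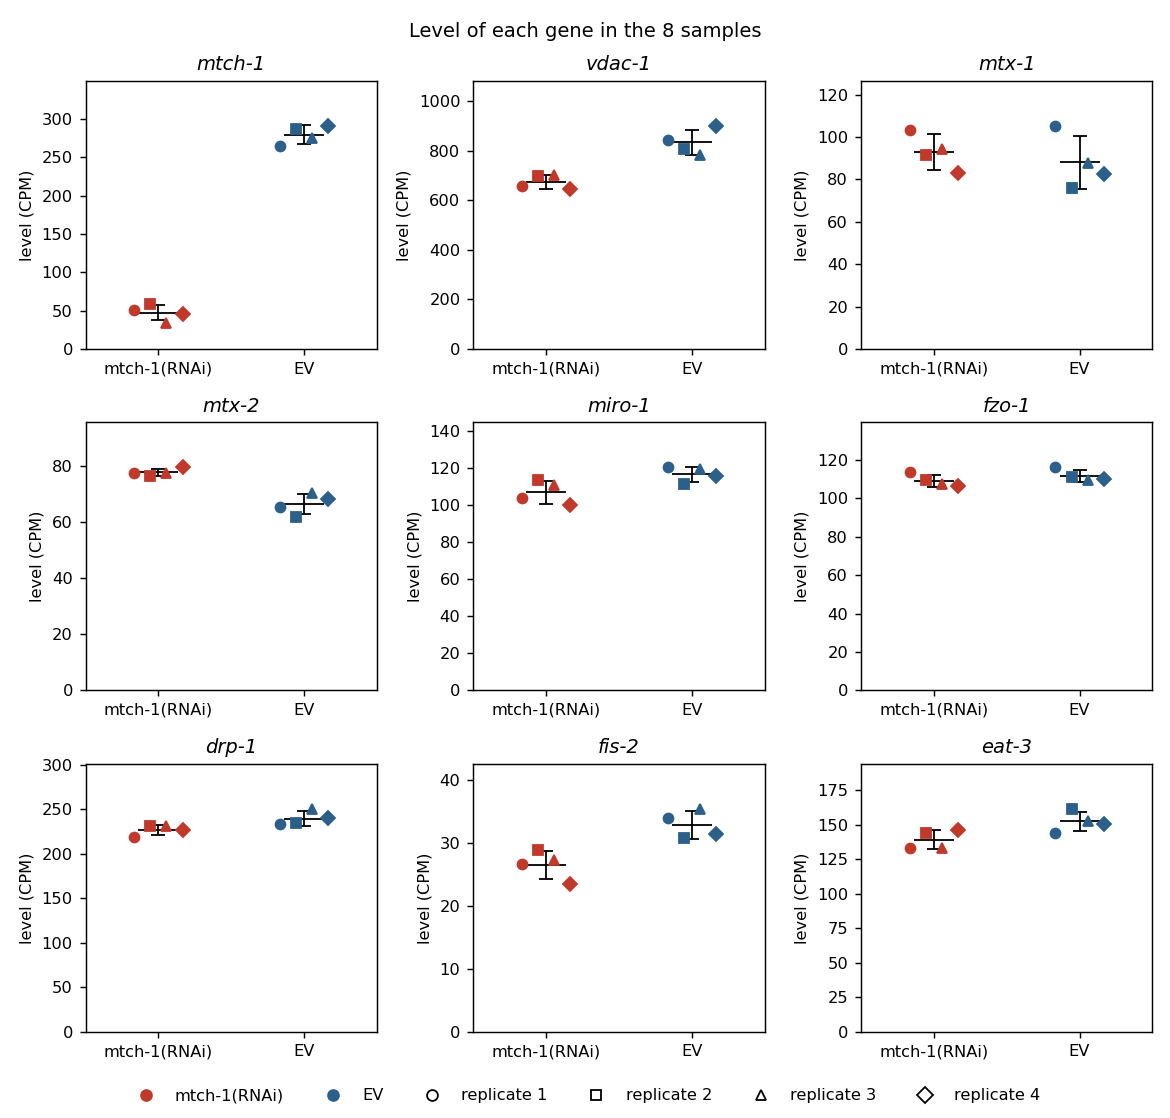
Level of each of the 9 genes in CPM (vertical axes, from 0) in the 4 mtch-1(RNAi) and 4 EV samples; symbols mark replicate numbers, black bars the mean and SD. The mtch-1(RNAi) samples lie below every EV sample for mtch-1, vdac-1, drp-1 and fis-2 and above every EV sample for mtx-2.

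mtch-1 (F43E2.7) has 1 annotated transcript of 6 exons on the minus strand of chromosome II, from 7372615 to 7374166 on WBcel235, and a gene length of 1343 bases in the deposited table. It had 1200, 1309, 735 and 966 reads in mtch-1(RNAi) replicates 1 to 4, and 5342, 5200, 5149 and 6576 reads in EV replicates 1 to 4. As a share of the EV mean in CPM, these mtch-1(RNAi) samples kept 18.1%, 20.7%, 12.3% and 16.5%. Replicate 3 was thus the most depleted sample and replicate 2 the least. The mean was 47.2 ± 9.92 CPM in mtch-1(RNAi) and 279 ± 11.9 CPM in EV (SD, n = 4). The coefficient of variation was 21.01% in mtch-1(RNAi) and 4.27% in EV, so the depleted samples were relatively more uneven. The log2 fold change was -2.56, with a 95% interval of -2.81 to -2.31 (adjusted p = 8.62e-08). It was the 4th lowest log2 fold change of all genes tested and the 2nd lowest adjusted p. The part of mtch-1 carried by the feeding vector is not given in the sources used here, so reads of ingested double-stranded RNA and of the worm's own transcript cannot be told apart.

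Genes beside the target were also looked at. The start of rpb-4, which encodes a subunit of RNA polymerase II, lies 328 bases from mtch-1 and runs the other way (chromosome II, 7374495 to 7375237, plus strand). rpb-4 stood at 98.4, 96.7, 89.3 and 94.2 CPM in mtch-1(RNAi) replicates 1 to 4, and at 117, 121, 124 and 122 CPM in EV replicates 1 to 4. All mtch-1(RNAi) samples were below all EV samples, and rpb-4 fell with a log2 fold change of -0.35 (SE 0.04, adjusted p = 0.000156). A long noncoding RNA gene, linc-169, overlaps the 3' end of mtch-1 by 121 bases on the other strand and was not analysed here. Whether the counting used strand is not given in the sources used here.

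By the measure given next, the genes nearest to mtch-1 were T19C9.8, Y37H2A.14 and the lysozyme gene lys-4. For a gene with so large a fall, this measure by its construction picks genes that also fell strongly. Their log2 fold changes were -2.74 for T19C9.8, -2.38 for Y37H2A.14 and -1.69 for lys-4. Likeness was the root mean square difference in log2 CPM over the 8 samples, with each gene centred on its own mean, among 8533 other genes whose mean over the 8 samples was at least 5 CPM. T19C9.8 and Y37H2A.14 met that limit through EV, and their mtch-1(RNAi) means lay below it. T19C9.8 differed by 0.21 on that log2 scale, with levels of 1.90 ± 0.314 CPM in mtch-1(RNAi) and 12.7 ± 2.11 CPM in EV (SD, n = 4). Y37H2A.14 differed by 0.48, with 4.59 ± 1.76 CPM in mtch-1(RNAi) and 24.0 ± 8.92 CPM in EV. lys-4 differed by 0.49, with 13.9 ± 1.88 CPM in mtch-1(RNAi) and 44.8 ± 4.19 CPM in EV.

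vdac-1 (R05G6.7, chromosome IV, 7506427 to 7507891, minus strand) encodes the channel of the outer membrane and was by far the most abundant of the 9. Its level was 657, 697, 701 and 646 CPM in mtch-1(RNAi) replicates 1 to 4, and 846, 808, 783 and 902 CPM in EV replicates 1 to 4. The highest mtch-1(RNAi) sample was below the lowest EV sample. vdac-1 fell to 80.9% of EV, a log2 fold change of -0.31 with a 95% interval of -0.42 to -0.19 (adjusted p = 0.00187). Within pairs of the same replicate number, the log2 ratio of mtch-1(RNAi) to EV was -0.36, -0.21, -0.16 and -0.48. The same pairs gave -2.39, -2.31, -3.01 and -2.66 for mtch-1, and a link between mtch-1 and vdac-1 across pairs was not tested. The annotated spans of vdac-1 and the glutamate transporter gene glt-6 overlap by 21 bases, and glt-6 stood at 0.961 ± 0.167 CPM in mtch-1(RNAi) and 0.858 ± 0.262 CPM in EV.

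By the same measure, which by its construction picks genes with a like amount of change, the nearest genes to vdac-1 were cash-1, gfat-2 and imph-1. cash-1 differed from it by a root mean square of 0.03 on the log2 scale, as did gfat-2, an enzyme gene of hexosamine synthesis, and imph-1, an RNA-binding protein gene. cash-1 stood at 302 ± 12.9 CPM in mtch-1(RNAi) and 377 ± 15.1 CPM in EV. gfat-2 stood at 950 ± 34.5 CPM in mtch-1(RNAi) and 1190 ± 48.5 CPM in EV, and imph-1 at 158 ± 7.64 CPM in mtch-1(RNAi) and 195 ± 7.62 CPM in EV (SD, n = 4).

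The metaxin pair differed in what passed the test. mtx-2 (ZC97.1, chromosome III, 7761977 to 7763603, minus strand) stood at 77.4, 76.3, 77.2 and 79.4 CPM in mtch-1(RNAi) replicates 1 to 4, and at 65.2, 61.7, 70.2 and 68.2 CPM in EV replicates 1 to 4. Every mtch-1(RNAi) sample was above every EV sample, with a coefficient of variation of 1.69% in mtch-1(RNAi) and 5.59% in EV. mtx-2 rose 1.17-fold, a log2 fold change of 0.23 with a 95% interval of 0.12 to 0.33 (adjusted p = 0.00586), and was higher in 4 of 4 replicate pairs. ZK686.2, the next gene beside mtx-2 on the same strand, fell instead, with 70.8 ± 4.45 CPM in mtch-1(RNAi) and 92.9 ± 3.82 CPM in EV (log2 fold change -0.39, adjusted p = 0.00037).

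mtx-1 (F39B2.11, chromosome I, 14755154 to 14756412, minus strand) did not pass the test. Its level was 103, 91.6, 94.5 and 82.8 CPM in mtch-1(RNAi) replicates 1 to 4, and 105, 76.1, 87.7 and 82.8 CPM in EV replicates 1 to 4. Replicate 1 was the highest sample of both groups, and the groups overlapped. The log2 fold change was 0.08 with a 95% interval of -0.12 to 0.28 (adjusted p = 0.569), the widest interval of the genes that did not pass, so a rise as large as that of mtx-2 lies within it. Without EV replicate 1 the log2 fold change was 0.18 (adjusted p = 0.103), and over the 8 omissions of 1 sample it ranged from 0.03 to 0.18. The ratio of mtx-1 to mtx-2 in FPKM was 0.904 ± 0.0905 in mtch-1(RNAi) and 1.00 ± 0.145 in EV (SD, n = 4). The groups overlapped, and the difference did not pass the unpaired test (exact 2-sided permutation p = 0.343, adjusted p = 0.429 over the 5 ratios computed). The ratio was lower in mtch-1(RNAi) in 4 of 4 pairs of the same replicate number. The difference in mean log2 ratio was -0.14, and without EV replicate 1 it was -0.04.

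miro-1 (K08F11.5, chromosome IV, 4712825 to 4715807, minus strand), the GTPase that ties mitochondria to motors, also did not pass. It stood at 104, 113, 111 and 100.1 CPM in mtch-1(RNAi) replicates 1 to 4, and at 121, 111, 119 and 115.8 CPM in EV replicates 1 to 4. EV replicate 2 lay among the mtch-1(RNAi) samples, and the other 3 EV samples lay above all of them. The log2 fold change was -0.13 with a 95% interval of -0.23 to -0.02, and the adjusted p was 0.0844, or 0.0543 with the replicate number as a block.

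**Figure D2:**
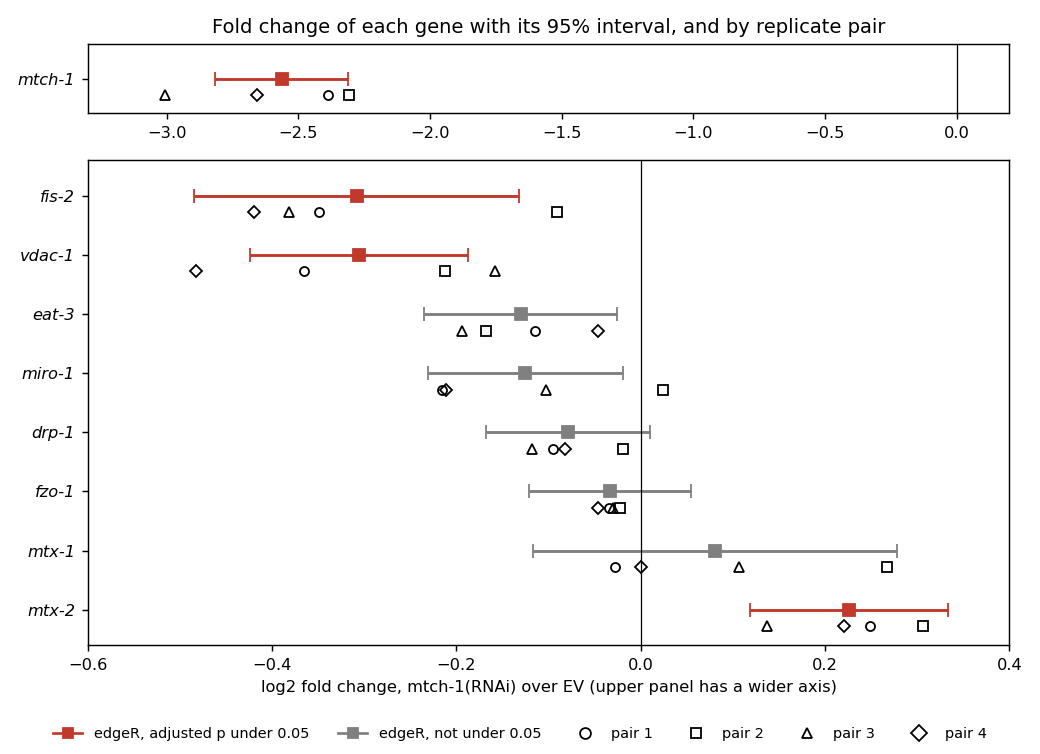
Log2 fold change of mtch-1(RNAi) over EV (horizontal axes; the upper one is wider) for mtch-1 and the other 8 genes, with the edgeR estimate and 95% interval as squares and bars and the log2 ratio within each pair of the same replicate number as open symbols. fis-2, vdac-1 and mtch-1 passed the test as lower and mtx-2 as higher, and all 4 pairs of fzo-1 lay between -0.05 and -0.02.

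Among the 9 genes, the fusion gene fzo-1 had the smallest fold change. fzo-1 (ZK1248.14, chromosome II, 5833328 to 5836203, minus strand) stood at 114, 109, 107 and 106 CPM in mtch-1(RNAi) replicates 1 to 4, and at 116.3, 111, 109.7 and 109.8 CPM in EV replicates 1 to 4. The groups overlapped. Its log2 fold change was -0.03 with a 95% interval of -0.12 to 0.05 (adjusted p = 0.60), which is 0.920-fold to 1.04-fold. It was lower in 4 of 4 pairs, with log2 ratios from -0.05 to -0.02, and did not pass with the replicate number as a block either (adjusted p = 0.595).

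eat-3 (D2013.5, chromosome II, 9324874 to 9329665, plus strand), the inner membrane fusion gene, lay at the edge of the test. Its level was 133.3, 144, 133.4 and 146 CPM in mtch-1(RNAi) replicates 1 to 4, and 144, 162, 153 and 151 CPM in EV replicates 1 to 4. EV replicate 1 lay just below the highest mtch-1(RNAi) sample, and the other EV samples lay above. The log2 fold change was -0.13 with a 95% interval of -0.23 to -0.03 (adjusted p = 0.0688). With the replicate number as a block, eat-3 passed the test as lower (log2 fold change -0.13, adjusted p = 0.0297), and it was lower in 4 of 4 pairs. In that fit 4 of the 9 genes fell, mtch-1 among them, and 1 rose, while 17.1% of all genes tested fell and 15% rose.

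Of the fission genes, fis-2 fell and drp-1 did not pass the test. drp-1 (T12E12.4, chromosome IV, 5538488 to 5541365, plus strand) stood at 218, 231.3, 231.3 and 227 CPM in mtch-1(RNAi) replicates 1 to 4, and at 233, 234, 251 and 239.9 CPM in EV replicates 1 to 4. No mtch-1(RNAi) sample reached the lowest EV sample, but the gap was small (log2 fold change -0.08, 95% interval -0.17 to 0.01, adjusted p = 0.190). Over all genes tested, 14.2% had every mtch-1(RNAi) sample below every EV sample and 11.7% had every one above. Among the 9 genes these numbers were 4, with mtch-1 among them, and 1.

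fis-2 (F13B9.8, chromosome X, 8283275 to 8285219, minus strand) had the fewest reads of the 9, from 491 to 650 in mtch-1(RNAi) and from 556 to 709 in EV. Its level was 26.6, 28.8, 27.2 and 23.5 CPM in mtch-1(RNAi) replicates 1 to 4, and 33.9, 30.7, 35.4 and 31.4 CPM in EV replicates 1 to 4. The groups did not overlap. fis-2 fell to 80.8% of EV, a log2 fold change of -0.31 with a 95% interval of -0.48 to -0.13 (adjusted p = 0.0164). mtch-1(RNAi) replicate 4 was its lowest sample, and without that sample the call was lost (log2 fold change -0.25, adjusted p = 0.0545). The pairs gave log2 ratios of -0.35, -0.09, -0.38 and -0.42, so pair 2 contributed least. The annotated span of fis-2 overlaps that of ksr-1, a scaffold gene of Ras signalling, by 27 bases, and ksr-1 stood at 22.2 ± 1.61 CPM in mtch-1(RNAi) and 21.7 ± 1.19 CPM in EV.

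Markers of germline, oocytes and embryos also included genes that fell. In a list of 8 oocyte and eggshell genes, 5 fell and 0 rose, against 13% of all genes tested that fell and 10% that rose. DESeq2 gave the same counts, and no further gene of this list passed at an unadjusted edgeR p under 0.05. egg-2, perm-2 and perm-4 did not pass, and the call of puf-5 was lost in 6 of the 8 omissions of 1 sample. The summed level of the 8 was 8233 to 8527 CPM in mtch-1(RNAi) and 9497 to 9955 CPM in EV. In a list of 8 germline genes, 3 fell (gld-1, glp-1 and nos-2), 1 rose (him-3, log2 fold change 0.19, adjusted p = 0.00474) and 4 did not pass, with sums of 2499 to 2632 CPM in mtch-1(RNAi) and 2706 to 2862 CPM in EV. Embryonic genes summed to 10.02 to 13.2 CPM in mtch-1(RNAi) and 13.9 to 15.7 CPM in EV, and 1 of 6 tested fell in edgeR (tbx-38), 2 in DESeq2, at an unadjusted p and with the replicate block, and 0 to 2 without 1 sample. The gld-1 call was lost in 7 of the 8 omissions. The summed levels of intestinal, body wall muscle, neuronal and hypodermal lists overlapped between the groups; dpy-7, a cuticle collagen gene, rose among 6 hypodermal genes (log2 fold change 1.10). None of 7 intestinal, 6 muscle and 7 neuronal genes passed edgeR; at an unadjusted p under 0.05, 1 intestinal gene was lower and 1 muscle gene higher, and DESeq2 called 1 intestinal gene. With the replicate number as a block these calls changed, and 15% of all genes tested rose and 17.1% fell. In that fit 4 of 6 muscle genes rose (unc-54, unc-15, unc-22 and unc-89) and 0 neuronal genes passed. There 3 of 7 intestinal genes fell (act-5, elt-2 and ifb-2). Without mtch-1(RNAi) replicate 3, 3 muscle genes rose in the fit with no block, and 0 to 1 intestinal genes fell over the 8 omissions. Sperm genes summed to 0.764 to 1.63 CPM in mtch-1(RNAi) and 0.797 to 1.39 CPM in EV. The part of germline, muscle or intestinal content in the changes of vdac-1, fis-2 and mtx-2 was not tested, and in whole animals fewer cells of a type and less RNA per cell cannot be told apart.

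Per unit of length, the 9 genes spanned more than an order of magnitude. vdac-1 had 624 ± 28.3 FPKM in mtch-1(RNAi) and 774 ± 48.0 FPKM in EV (SD, n = 4), above 99.2% of 18269 protein-coding genes in both groups. mtch-1 was the 2nd most abundant of the 9 in EV, at 199 ± 8.75 FPKM, and the 9th in mtch-1(RNAi), at 33.5 ± 7.11 FPKM. It stood above 77.0% of protein-coding genes in mtch-1(RNAi) and above 96.9% in EV. drp-1 followed with 87.7 ± 2.60 FPKM in mtch-1(RNAi) and 93.0 ± 3.27 FPKM in EV.

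The metaxin genes had near equal levels in EV: mtx-2 had 83.2 ± 1.15 FPKM in mtch-1(RNAi) and 71.4 ± 4.07 FPKM in EV, and mtx-1 had 75.1 ± 6.80 FPKM in mtch-1(RNAi) and 71.3 ± 10.01 FPKM in EV. miro-1 came next in both groups, with 49.1 ± 3.03 FPKM in mtch-1(RNAi) and 53.7 ± 1.85 FPKM in EV. fis-2, eat-3 and fzo-1 lay close together. fis-2 had 39.4 ± 3.46 FPKM in mtch-1(RNAi) and 48.9 ± 3.29 FPKM in EV, and eat-3 had 40.3 ± 2.00 FPKM in mtch-1(RNAi) and 44.3 ± 2.13 FPKM in EV. fzo-1 had 40.9 ± 1.19 FPKM in mtch-1(RNAi) and 42.0 ± 1.08 FPKM in EV. In EV the sample ranges of neighbours in this order overlapped for mtx-2 and mtx-1, for miro-1 and fis-2, for fis-2 and eat-3, and for eat-3 and fzo-1. In mtch-1(RNAi) they overlapped for drp-1 and mtx-2, mtx-2 and mtx-1, fzo-1 and eat-3, eat-3 and fis-2, and fis-2 and mtch-1.

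**Figure D3:**
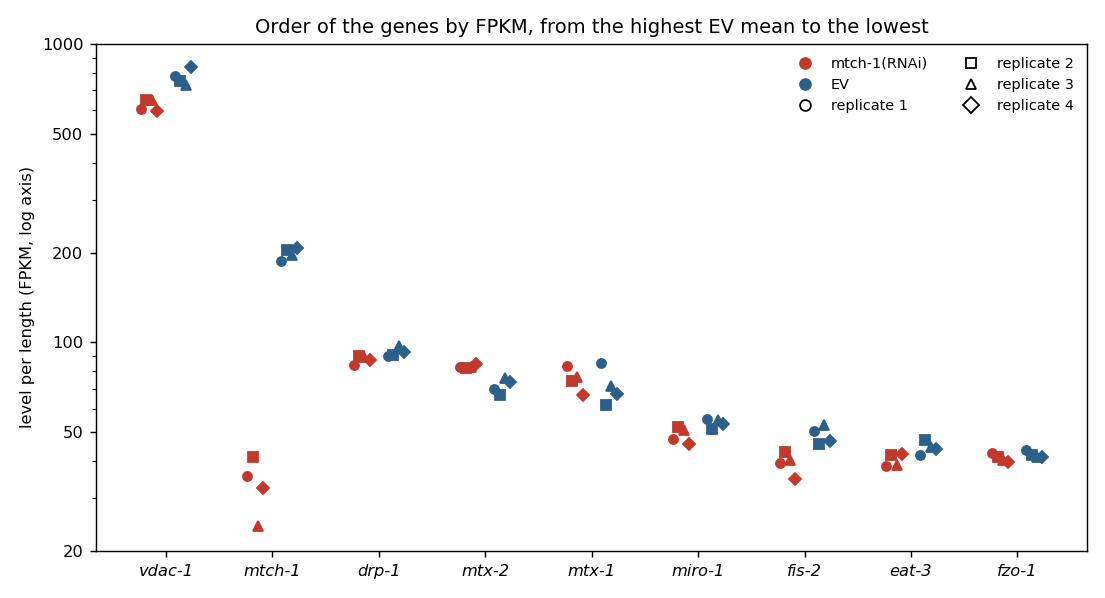
Level per gene length (FPKM, vertical log axis) of the 9 genes in each sample, ordered by the EV mean, with mtch-1(RNAi) samples left of EV samples. mtch-1 is 2nd in EV, at 199 FPKM, and lies at 24.3 to 41.3 FPKM in mtch-1(RNAi), below or among fis-2, eat-3 and fzo-1.

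The balance of fusion and fission genes was compared as the ratio of FPKM within each sample. The ratio of fzo-1 to drp-1 was 0.467 ± 0.0249 in mtch-1(RNAi) and 0.453 ± 0.0250 in EV (SD, n = 4; exact 2-sided permutation p = 0.429). The ratio of eat-3 to drp-1 was 0.460 ± 0.0211 in mtch-1(RNAi) and 0.477 ± 0.0275 in EV (exact p = 0.429). fzo-1 to eat-3, outer over inner membrane fusion, gave 1.02 ± 0.0697 in mtch-1(RNAi) and 0.951 ± 0.0652 in EV (exact p = 0.257). In all 3 the groups overlapped and the adjusted p over the 5 ratios was 0.429. Without 1 sample the difference in mean log2 ratio ran from 0.01 to 0.08 for fzo-1 to drp-1, from -0.08 to -0.01 for eat-3 to drp-1 and from 0.06 to 0.14 for fzo-1 to eat-3.

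The ratio of fis-2 to drp-1 separated the groups. It was 0.468, 0.478, 0.452 and 0.398 in mtch-1(RNAi) replicates 1 to 4, and 0.558, 0.503, 0.542 and 0.503 in EV replicates 1 to 4. The highest mtch-1(RNAi) sample was below the lowest EV sample, and the mean log2 ratio was lower in mtch-1(RNAi) by -0.23. The exact 2-sided permutation p was 0.0286, the smallest that 4 against 4 samples can give. The adjusted p over the 5 ratios was 0.143. A single ratio at the smallest p cannot get a lower adjusted p unless others reach it too. The adjusted test therefore could not pass this ratio, whatever the size of its difference, and decides nothing about it.

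**Figure D4:**
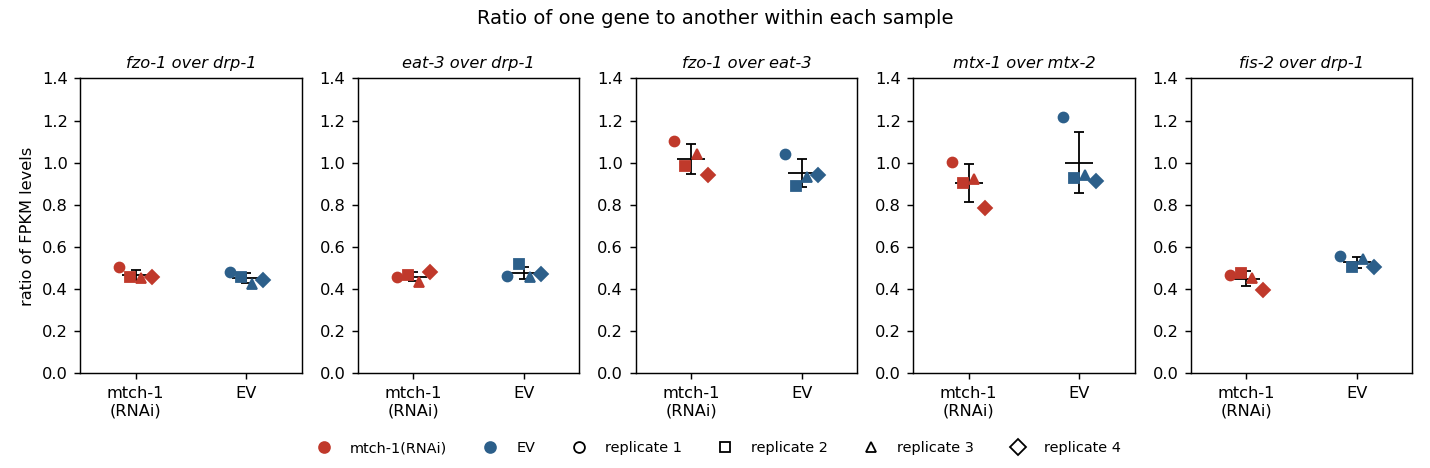
Ratio of the FPKM levels of 2 genes within each sample (vertical axes, from 0) in 4 mtch-1(RNAi) and 4 EV samples, with mean and SD as black bars. The groups separate only for fis-2 over drp-1, at 0.398 to 0.478 in mtch-1(RNAi) and 0.503 to 0.558 in EV, and overlap for the other 4 ratios.

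Of 32 other genes of mitochondrial import, dynamics, cristae, transport and mitophagy in 5 lists, 5 rose and 8 fell, against 10% of all genes tested that rose and 13% that fell. Only 4 fell when mtch-1(RNAi) replicate 1 or EV replicate 4 was left out, and 5 when EV replicate 2 was. The number of all genes that fell dropped too, from 1728 with every sample. It was 1394 without mtch-1(RNAi) replicate 1, 1219 without EV replicate 4 and 1475 without EV replicate 2. Under a filter of at least 1 CPM in every sample, 8 of these related genes rose. All genes that rose numbered 1365 under that filter and 1325 in the main fit. The number of genes tested under that filter is not given here.

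Of 6 outer membrane import and assembly genes, 1 rose and 1 fell (median log2 fold change 0.07). tomm-7, a small subunit of the TOM translocase, rose to 125 ± 11.8 CPM in mtch-1(RNAi), against 90.8 ± 7.44 CPM in EV (log2 fold change 0.46, adjusted p = 0.000918). tomm-70, a receptor for incoming precursors, fell to 97.0 ± 7.31 CPM in mtch-1(RNAi), against 114 ± 8.46 CPM in EV (-0.23, adjusted p = 0.0239). tomm-70 no longer passed when mtch-1(RNAi) replicate 1 or EV replicate 2, 3 or 4 was left out, with an adjusted p of up to 0.0880, and it held with the replicate block (adjusted p = 0.000641). The channel gene tomm-40 and gop-3, the worm SAM50 that assembles beta-barrels such as VDAC, had log2 fold changes of 0.04 and 0.10 (adjusted p = 0.560 and 0.121).

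Of 9 other fusion and fission factors, 3 rose and 3 fell (median -0.02), or 4 and 4 with the replicate block. With that block 15% of all genes tested rose and 17.1% fell. Only spg-7 fell without mtch-1(RNAi) replicate 1 or 4 or EV replicate 2 or 4; in these omissions the calls of miga-1 (-0.16, adjusted p = 0.0418) and phb-2 (-0.17, adjusted p = 0.0231) were lost. ymel-1, the inner membrane protease of the i-AAA type, rose to 127 ± 2.39 CPM in mtch-1(RNAi), against 97.9 ± 4.03 CPM in EV (log2 fold change 0.38, adjusted p = 9.03e-05). spg-7, a subunit of the m-AAA protease, fell to 96.7 ± 10.9 CPM in mtch-1(RNAi), against 137 ± 8.22 CPM in EV (-0.50, adjusted p = 0.000491). mff-2, of the mitochondrial fission factor family, rose to 82.6 ± 2.71 CPM in mtch-1(RNAi), against 67.7 ± 2.53 CPM in EV (0.29, adjusted p = 0.00106). Its relative mff-1 stood at 10.8 ± 1.03 CPM in mtch-1(RNAi) and 10.96 ± 1.29 CPM in EV. stl-1 also rose (0.32, adjusted p = 0.00172). phb-1, unlike phb-2, had a positive log2 fold change. It did not pass edgeR (0.15, adjusted p = 0.0586) but rose with the replicate block (0.16, adjusted p = 0.0156).

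In the list of cristae genes, 4 of 6 fell and 0 rose (median -0.17), against 13% of all genes tested that fell. DESeq2 gave the same counts, and no further gene of the list passed at an unadjusted edgeR p under 0.05. immt-1, a mitofilin of the MICOS complex at cristae junctions, fell to 45.9 ± 4.30 CPM in mtch-1(RNAi), against 61.1 ± 1.72 CPM in EV (-0.41, adjusted p = 0.00108). Its paralog immt-2 fell to 148 ± 5.12 CPM in mtch-1(RNAi), against 168 ± 8.41 CPM in EV (-0.18, adjusted p = 0.0146). letm-1 (-0.17, adjusted p = 0.0126) and micu-1 (-0.17, adjusted p = 0.0284) act in ion transport across the inner membrane and are not MICOS subunits. The call of immt-2 was lost without EV replicate 4 (adjusted p = 0.0509). micu-1 did not pass when mtch-1(RNAi) replicate 1 or 2 or EV replicate 1 or 3 was left out, so 3 to 4 of the 6 fell over the 8 omissions. The MICOS genes moma-1 and chch-3 had log2 fold changes of 0.06 and 0.05.

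Of 5 transport genes, trak-1 rose and 0 fell in edgeR and in DESeq2 (median -0.06), and 1 was lower at an unadjusted p under 0.05 (klc-1, a kinesin light chain gene, which fell with the replicate block, adjusted p = 0.0438). trak-1, of the adaptor family that links Miro to the motors in flies and mammals, stood at 71.5 ± 4.25 CPM in mtch-1(RNAi) and 55.4 ± 3.75 CPM in EV (log2 fold change 0.37, adjusted p = 0.00139). The kinesin heavy chain gene unc-116 had a log2 fold change of -0.09 (adjusted p = 0.210). None of 6 mitophagy and cell death factors passed edgeR or DESeq2, with log2 fold changes from -0.10 to 0.03, and 2 were lower at an unadjusted edgeR p under 0.05. allo-1, an autophagy receptor gene, stood at 224 ± 10.4 CPM in mtch-1(RNAi) and 219 ± 9.54 CPM in EV. pgam-5, a mitochondrial phosphatase gene, stood at 150 ± 3.61 CPM in mtch-1(RNAi) and 162 ± 3.27 CPM in EV.

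**Figure D5:**
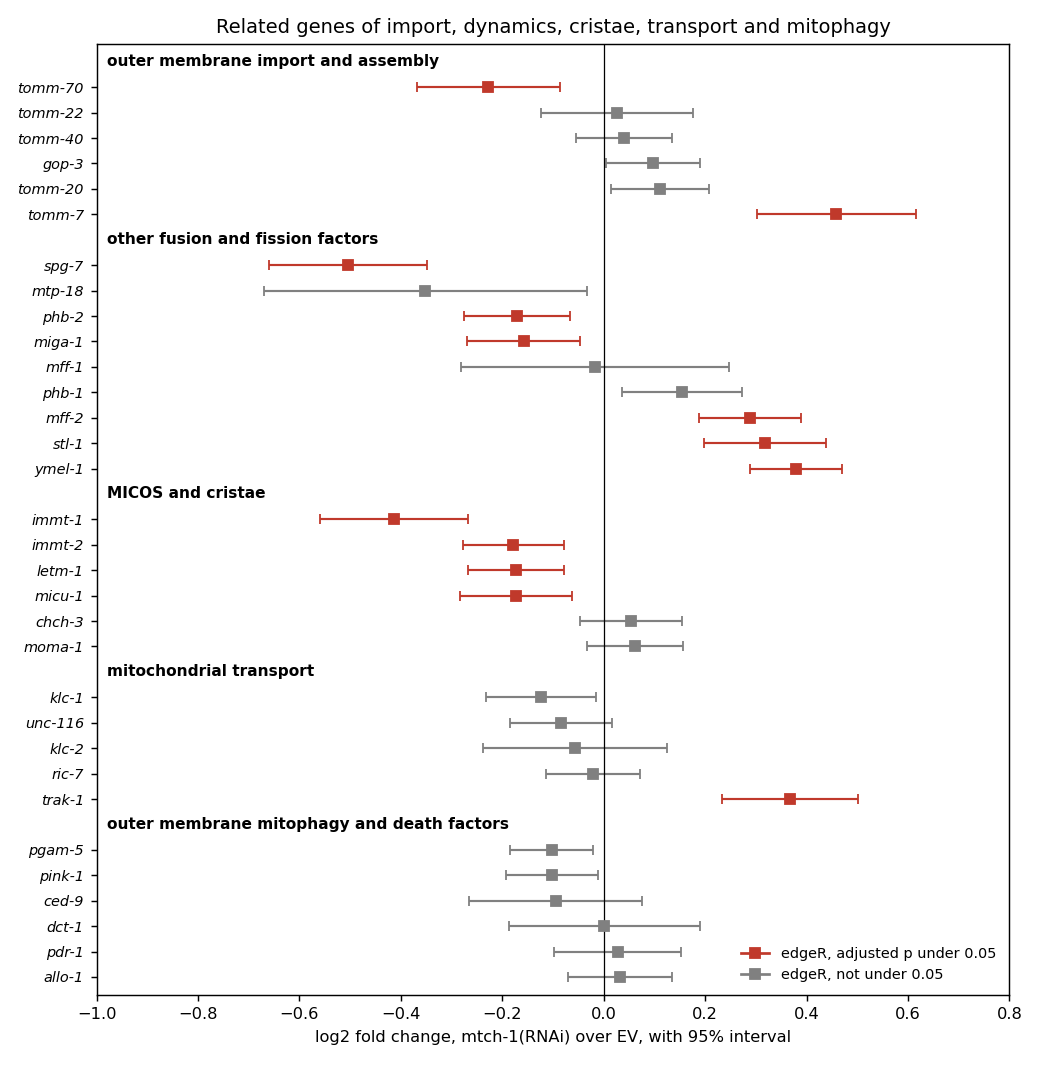
Log2 fold change of mtch-1(RNAi) over EV (horizontal axis) with its 95% interval for 32 related genes in 5 lists; red marks an edgeR adjusted p under 0.05. Both directions occur among the import and the fusion and fission genes, and tomm-7 (0.46) and spg-7 (-0.50) are the extremes. The 4 called genes of the cristae list lie below 0, and letm-1 and micu-1 among them are not MICOS subunits.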

How the data were processed

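The submitters' processing notes name the aligner HISAT2 2.0.5, the counter featureCounts 1.5.0-p3, DESeq2 and the build WBcel235. The sources used here give no settings, RNA selection or strandedness. Per the file headers, the authors deposited whole-number counts per gene, FPKM values, a normalized signal (counts over a size factor) with its mean per group, log2 fold changes and p-values, and gene lengths and positions in bases, another unit the authors deposited. Counts were tested; FPKM served for levels between genes and ratios.

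Of 20871 genes, 20595 were matched to Ensembl release 115 and 1 to RefSeq; gene spans are from Ensembl on WBcel235, 1-based. Groups and replicate numbers came from sample titles. edgeR 4.0.16 in R 4.3.3 (TMM, default filter, quasi-likelihood F test, no block) was run on all genes after a check on simulated counts; standard errors come from the fold change and its F value. Alternatives were RLE and upper-quartile scaling, no filter and a stricter one, DESeq2 1.42.0, limma-voom (limma 3.58.1), a replicate block, and leaving out each sample. Same-numbered samples deviated together, with correlations of 0.342, 0.205, 0.242 and 0.185, all above the limit of 0.1. The highest correlation with a sample of another number was 0.097 for replicates 1 and 2. It was 0.150 for replicates 3 and 4, which is above that limit too. Each same-numbered pair thus agreed more than its differently numbered ones, although no label names a shared plate or day. The main fit and the ratio tests did not use these pairs. No 2 samples of a group agreed within sampling noise (chi-square per degree of freedom of 6.28 to 14.0). Whether samples of a group came from separate cultures is not in the labels; p-values therefore reflect the spread of these samples alone, possibly a technical one.

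The members and lists were chosen with earlier results of these data known. Named genes are the 9 members, up to 3 called genes of each list with the lowest adjusted p or the 2 with the highest CPM where none was called, genes within 1000 bases of a member, and the 3 genes most like mtch-1 and vdac-1. micu-1, miga-1, phb-1, phb-2, stl-1, klc-1, tomm-40, gop-3, mff-1, moma-1, chch-3, unc-116 and the marker genes were named after their values were seen. Of 37 symbols in the related lists, 4 (fis-1, miro-2, miro-3 and fundc-1) matched no gene symbol and were not used here. Ensembl names the FUNDC1 homolog fndc-1, and that gene was not analysed here under either name. Sequences shared between mtch-1 and other transcripts were not analysed here.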

Additional observations from a re-analysis of the deposited data

Results flagged for a closer look

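In 28 groups of 4 values (9 genes and 5 ratios in each treatment), 2 values stood apart from the other 3 of their group by more than Dixon's 95% critical value; chance flags about 1 in 20 such groups. The ratio of fzo-1 to drp-1 in mtch-1(RNAi) replicate 1 was 0.504, against 0.450 to 0.459 in the other 3 mtch-1(RNAi) samples. The ratio of mtx-1 to mtx-2 in EV replicate 1 was 1.22, against 0.915 to 0.941 in the other 3 EV samples.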

How the results depend on the processing

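The calls of mtch-1, vdac-1 and mtx-2 kept their direction and passed the test under all 7 other settings and with each of the 8 samples left out, and fis-2 passed under the 7 settings. Without 1 sample the log2 fold change ranged from -2.68 to -2.44 for mtch-1, from -0.34 to -0.26 for vdac-1, from 0.20 to 0.25 for mtx-2 and from -0.35 to -0.25 for fis-2. Leaving out mtch-1(RNAi) replicate 4 was the only omission that ended the fis-2 call, whose adjusted p ranged from 0.0166 to 0.0545 over the 8 omissions. The eat-3 difference, with adjusted p = 0.0688, passed the test only with the replicate block (-0.13, adjusted p = 0.0297); the block changed no other call among the 9 genes. Numbers of the 9 genes that fell were 2 to 3 without 1 sample and 3 to 4 under the other settings. The related genes that fell numbered 4 to 7 without 1 sample and 10 with the replicate block, where 17.1% of all genes tested fell. All genes that fell numbered 1219 to 1632 without 1 sample, against 1728 in the main fit. Related genes that rose numbered 8 with the stricter filter and 7 with upper-quartile scaling. Under these settings the log2 fold changes of all 9 genes were slightly higher than in the main fit. That of vdac-1 was -0.28 with the stricter filter and -0.29 with upper-quartile scaling, against -0.31. The cause was not tested. With 3 against 4 samples no ratio can pass an exact test after adjustment; the difference in mean log2 ratio ranged over the omissions from -0.26 to -0.17 for fis-2 to drp-1 and from -0.19 to -0.04 for mtx-1 to mtx-2. fis-2, with 491 to 709 reads a sample, was the least precisely counted of the 9.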

Other observations

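Around the 9 genes, 18 annotated genes lie within 1000 bases, and 14 of them were tested. Of these 2 rose and 2 fell, near the shares of all genes tested, of which 10% rose and 13% fell. Besides rpb-4 and ZK686.2, which fell, dnj-12, a DnaJ co-chaperone gene 491 bases from mtx-1, rose to 466 ± 20.5 CPM in mtch-1(RNAi), against 408 ± 5.64 CPM in EV (SD, n = 4; log2 fold change 0.19, adjusted p = 0.00744). yars-2, a mitochondrial tyrosyl-tRNA synthetase gene 200 bases from miro-1 on the same strand, rose to 72.3 ± 4.39 CPM in mtch-1(RNAi), against 63.3 ± 3.64 CPM in EV (0.19, adjusted p = 0.0319); its call was lost in 5 of the 8 omissions of 1 sample, with an adjusted p of up to 0.0903. miro-1 beside it did not pass the test, and neither did gtap-1 and ZK1248.15 on either side of fzo-1 (log2 fold changes -0.08 and 0.06) or egli-1 and wbp-2 on either side of eat-3 (0.14 and -0.05).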
